A study of Mus musculus with 12 samples.

Results

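*Pramef12* encodes a leucine-rich member of the PRAME family that is found in spermatogonia. The mRNA of whole testes at postnatal day 7 (P7) was compared between *Pramef12* Null (Pramef12-/-) and *Pramef12* Het (Pramef12+/-) males, with 3 samples of each genotype and therefore 6 of the 12 samples of the series. The other 6 samples were testes of the same genotypes at postnatal day 2 (P2) and were used only where the effect of genotype is compared between ages. All mice were of a mixed B6D2F1 background. The edited allele, made with CRISPR/Cas9, carries a short deletion just after the start codon in every cell of the animal, and the Het controls carry 1 copy of it, so no wild-type testis was compared. Null and Het animals came from a single founder line, and each sample stands for 1 animal or 1 testis of an animal. What the sample numbers 4 to 6 stand for is not in the labels, so the p-values measure the spread between these samples, part of which may be technical.

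At P7 the seminiferous tubule holds spermatogonia that have recently left a resting state, resumed mitosis and settled on the tubule wall, some as stem cells and some already committed to differentiation. Sertoli cells, the somatic nurse cells of the tubule, still divide at this age and surround the germ cells. Peritubular myoid cells wrap the tubule, and Leydig cells, which make androgen, lie between tubules with fibroblasts, vessels and macrophages. Sertoli cells send glial cell line-derived neurotrophic factor (GDNF) and KIT ligand to the germ cells, while retinoic acid starts differentiation. In germ cells, PIWI proteins and their small RNAs (piRNAs) keep transposons silent.

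The 6 libraries held 16118897 to 20894282 counts assigned to genes. *Pramef12* (chr4:144391674-144408464, minus strand, mm10) was read at 84.7, 90.7 and 67.6 CPM (counts scaled to library size after TMM normalization) in Het 4, 5 and 6, and at 25, 19.4 and 29.2 in Null 4, 5 and 6, so the edited gene was lower in every library labelled Null. The deletion removes only a small piece of the gene, so these counts measure the transcript and not the deletion itself. The first principal component of log2 CPM held 47.5% of the variance and separated the genotypes. The second, with 23.6%, set Het 6 and Null 6 apart from the other samples, and both were also left out together as an alternative.

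Genes were called with the quasi-likelihood test of edgeR at a Benjamini-Hochberg adjusted P below 0.1. Of 16703 genes tested, 2221 (13.3%) were lower and 1247 (7.47%) were higher in Null testes. With sample number as a block, 2801 (16.8%) were lower and 2142 (12.8%) higher. DESeq2, run without this low-count filter on 31153 genes, called 1853 (5.95%) lower and 1270 (4.08%) higher. Its shares have another denominator and cannot be set beside those of edgeR. The falls were larger than the rises. Among genes called lower, 457 (20.6%) fell by at least 1 on the log2 scale and 78 by at least 2, against 43 (3.45%) and 0 among genes called higher. The median log2 change was -0.46 for called falls and 0.30 for called rises. Leaving out Het 4 left 1216 lower and 506 higher, leaving out Het 5 left 1277 and 471, and leaving out Null 5 left 683 higher. A stricter group was called by edgeR with and without the block, by DESeq2 and in each of the 6 fits that leave out a sample, with no overlap between the groups. Over all genes tested, the 3 Null samples lay below the 3 Het samples in 19.9% and above them in 15.2%. The stricter group held 1080 genes that were lower (6.47%) and 314 that were higher (1.88%).

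These are shares of the RNA of a whole testis, in which fewer cells of a type and less RNA per cell cannot be told apart. A gene of another cell type also takes a larger share when germ cell transcripts take a smaller one, so every comparison was repeated with the libraries scaled on markers of Sertoli cells, and again on markers of all somatic types pooled. Sertoli scaling moved the median log2 change over all genes from 0.01 to -0.34, left 72 genes higher (0.431%) and called 9985 lower (59.8%). Pooled somatic scaling moved the median to -0.14, with 88 higher (0.527%) and 2648 lower (15.9%). Values are on the usual scale unless a scaling is named, and the rises that lost their call under these scalings are named together below.

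The 15 named falls are genes outside those the study's text discusses. They were chosen from 166 candidates for the smallest p among genes that fell by at least 1 on the log2 scale and met every requirement of the stricter group. Each fell more steeply under both marker scalings, which move nearly all genes down. Their log2 changes ran from -1.21 (*Aldoc*) to -2.73 (*Lmo1*), and by construction their groups do not overlap.

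Transport and signalling genes were among them. *Dusp9* (chrX:73639419-73643514), a phosphatase that switches off MAP kinases, was at 75.9, 88.6 and 80.3 CPM in the Het samples and at 34.2, 31.4 and 34.1 in the Null samples. Its log2 change was -1.30 ± 0.08 (SE, n = 3 and 3; edgeR adjusted P = 0.000892). *Slc17a7*, the vesicular glutamate transporter VGLUT1, was at 15, 15.1 and 14.7 CPM in Het and 2.88, 2.12 and 3.17 in Null testes, 5.48-fold lower (log2 change -2.45 ± 0.16, edgeR adjusted P = 0.000892). The spread within either genotype was small beside the gap for both genes. *Grik3*, a kainate-type glutamate receptor subunit, was at 33.8 to 39.9 CPM in Het and 12.3 to 16.1 in Null samples. The Notch ligand gene *Jag2* was at 54.5, 46.1 and 48.7 CPM in Het and 21.7, 16 and 19.2 in Null samples, a log2 change of -1.39 ± 0.12 (edgeR adjusted P = 0.00159).

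Several falls were in regulators of transcription and RNA. *Lmo1*, a LIM-domain transcription cofactor, had the largest change of the 15, from 10.9, 11.2 and 9.09 CPM in Het to 1.97, 1.2 and 1.49 in Null samples (6.64-fold lower, log2 change -2.73 ± 0.20, edgeR adjusted P = 0.0014). *Nr6a1*, the germ cell nuclear factor GCNF, an orphan nuclear receptor known to repress *Pou5f1*, was at 43.6, 40.2 and 43.5 CPM in Het and 19.1, 16 and 17.1 in Null samples. So a repressor of *Pou5f1* and *Pou5f1* itself, described below, were both lower in the same libraries. *Casz1*, a zinc-finger transcription factor, was at 24.5 to 29 CPM in Het and 7.56 to 9.42 in Null samples. *Esrp1*, an epithelial splicing regulator, was at 58.6 to 68 and 24.1 to 29.4 CPM.

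The remaining falls were in structural, metabolic and cell division genes. *Tuba3a*, an alpha-tubulin gene with its main expression in testis, was the most highly counted of the 15, at 282, 280 and 291 CPM in Het and 128, 103 and 119 in Null samples (log2 change -1.28 ± 0.08). Its near-copy *Tuba3b* and a pseudogene share 35.3% of its 50-base exon windows, and reads with several matches were removed, so its level is uncertain. *M1ap*, a gene needed for male meiosis, was at 29.3 to 34.2 CPM in Het and 11.4 to 14.2 in Null samples. *Aldoc*, a glycolytic aldolase, was at 21.8 to 25 and 9.66 to 10.5 CPM. *Plk5*, a polo-like kinase family member, was 5.57-fold lower, at 4.45 to 5.4 CPM in Het and 0.745 to 1.01 in Null samples. *Smagp* (a small membrane glycoprotein), *Galnt12* (which starts mucin-type glycosylation) and *Cpne5* (a calcium-dependent membrane-binding protein) were 3.38-fold, 3.56-fold and 2.58-fold lower.

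**Figure D1:**
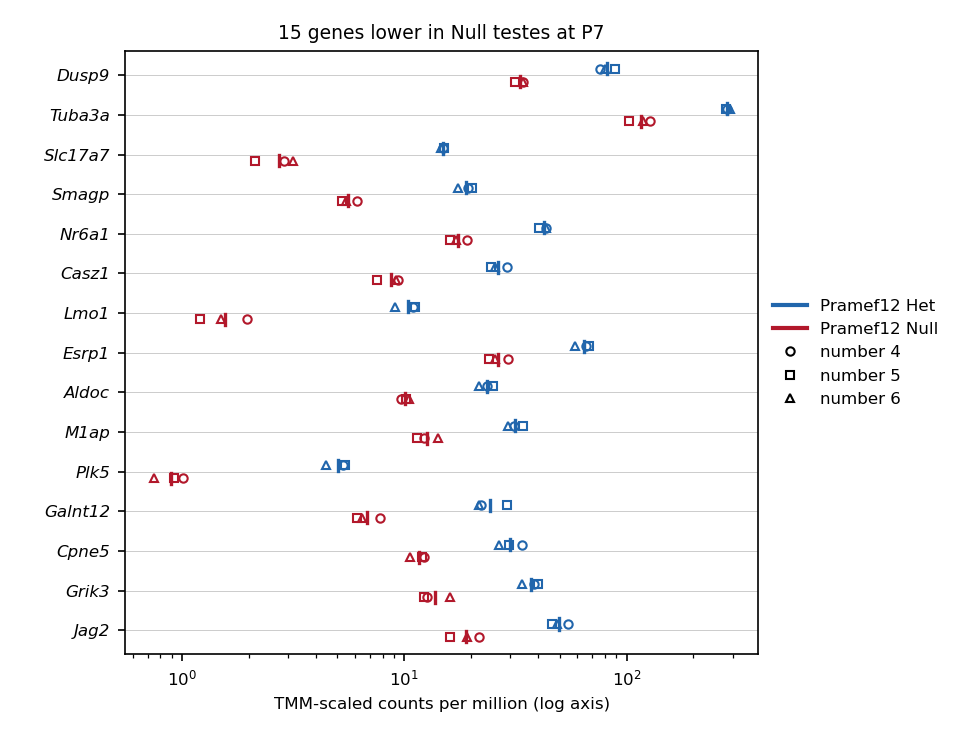
CPM on a log axis of the 15 named falls in the 6 P7 samples, with a point for each sample, coloured by genotype and shaped by sample number, and a short vertical bar at each group mean. In every gene the 3 Null points lie below the 3 Het points; at *Lmo1* the gap runs from 9.09 CPM in the lowest Het sample to 1.97 in the highest Null sample, and at *Slc17a7* from 14.7 to 3.17.

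The promoters of a pair of named falls are shown because both genes are near the head of the falls by p and their windows differ in the motifs found. They are the RefSeq windows from 250 bases before to 50 bases after the transcript start (GRCm38.p6), of the first falls by p that have a single such window. *Tuba3a* is on the minus strand at chr6:125286032-125286331 and *Slc17a7* on the plus strand at chr7:45163671-45163970. Capitals mark matches, on either strand, to 5 motifs. They were an E-box read as CACGTG, an E2F-type site read as TTCCCGC on this strand (GCGGGAA on the other), a CCAAT box (ATTGG on the other strand), a further E-box read as CAGCTG, and a GATA site (TATC on the other strand). No matches overlap in the windows shown.
Tuba3a: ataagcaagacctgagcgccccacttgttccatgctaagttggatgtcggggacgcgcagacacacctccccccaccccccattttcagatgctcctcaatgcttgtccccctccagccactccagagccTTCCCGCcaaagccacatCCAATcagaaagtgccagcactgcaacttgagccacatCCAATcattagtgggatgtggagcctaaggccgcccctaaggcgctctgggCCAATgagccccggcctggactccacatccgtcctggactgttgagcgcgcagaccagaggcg
Slc17a7: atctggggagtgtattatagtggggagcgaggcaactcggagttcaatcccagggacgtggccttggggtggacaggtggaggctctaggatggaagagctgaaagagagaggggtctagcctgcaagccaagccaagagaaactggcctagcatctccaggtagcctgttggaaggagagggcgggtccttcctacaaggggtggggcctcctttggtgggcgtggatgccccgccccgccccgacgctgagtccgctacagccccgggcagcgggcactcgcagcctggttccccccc
The *Tuba3a* window holds 1 TTCCCGC and 3 CCAAT matches, and the *Slc17a7* window holds none of the letters searched. Of all 32851 RefSeq promoter windows, 4.6% hold the E2F-type site and 37.4% the CCAAT box on either strand. Only 76.7% of genes called lower and 74.8% of genes called higher have a window in the table, so motif shares were not compared between them.

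Germ cell genes were lower as a group. Of 12 tested general germ cell markers, 11 were lower and 0 higher, against 13.3% and 7.47% of all genes, and their summed level was 1229 to 1512 CPM in Het and 698 to 995 in Null samples. The study discusses 8 of the 13 genes on this list, most of them from these samples, so its direction is not independent evidence. Leaving out Het 4 left 6 lower and leaving out Het 5 left 7. *Ddx4*, the germ cell RNA helicase VASA, was at 111 to 144 CPM in Het and 51.3 to 67 in Null samples. *Dazl*, a translational regulator that licenses germ cell development, was at 251 to 291 and 124 to 164 CPM.

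The piRNA machinery fell with them. Of 24 tested pathway genes, 18 were lower and 0 higher, with a median log2 change of -0.70, and 11 were lower without Het 4 and 11 without Het 5. The study names 7 of the 24 among its own falls, so this direction is not independent evidence either. *Gpat2*, a mitochondrial outer membrane protein of piRNA biogenesis, was at 86.6, 81.9 and 76.2 CPM in Het and 40.1, 28.8 and 39.5 in Null samples (log2 change -1.18 ± 0.12, edgeR adjusted P = 0.00262). *Henmt1*, the methyltransferase that modifies the 3′ end of piRNAs, was at 12.9, 13.5 and 10.9 CPM in Het and 5.77, 3.91 and 4.28 in Null samples (log2 change -1.41 ± 0.17, edgeR adjusted P = 0.00388). In both genes every Null sample lay below the lowest Het sample, as in 19.9% of all genes tested. Of *Henmt1* exon sequence, 14.7% overlaps other genes and reads there cannot be assigned by strand. The PIWI protein gene *Piwil2*, whose product binds piRNAs, was at 243 to 354 CPM in Het and 110 to 166 in Null samples.

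Germ cell RNA-binding proteins behaved alike, with 14 of 19 tested genes lower, 0 higher and a median of -0.71. The members with the smallest p included *Lin28a*, which blocks let-7 maturation and marks undifferentiated spermatogonia. Its levels were 105, 105 and 79.3 CPM in Het and 48.9, 24.7 and 30.4 in Null samples. *Rbm46*, an RNA-binding protein needed for meiotic entry, was at 42.4 to 56.3 and 26.6 to 31.5 CPM.

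Among pluripotency and primordial germ cell genes, 5 of 14 tested were lower and 0 higher. The study names 4 of the 14 among its own falls, so the direction of this list is not independent evidence. The 5 falls were large, but the genes other than *Sall4* were low. *Esrrb*, an orphan nuclear receptor of the pluripotency network, was at 2.63, 2.23 and 2.39 CPM in Het and 0.433, 0.381 and 0.248 in Null samples (log2 change -2.73 ± 0.27, edgeR adjusted P = 0.00223). *Pou5f1* (OCT4) was at 9.22, 6.34 and 5.91 CPM in Het and 1.49, 1.47 and 2.3 in Null samples, and *Utf1*, a chromatin factor of undifferentiated cells, at 2.74 to 5.3 and 0.497 to 0.962. Not all members of this list are restricted to germ cells, and 9 of the 14 were not called. *Sall4*, a zinc-finger factor of undifferentiated spermatogonia, was at 109 to 119 CPM in Het and 47.9 to 67 in Null samples.

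DNA methylation and germline chromatin genes were mixed. Of 18 tested genes, 8 were lower and 1 higher, and the list median was -0.14. The de novo methyltransferase gene *Dnmt3b* had the largest named fall, from 112, 126 and 87.4 CPM in Het to 55.9, 42.2 and 41.6 in Null samples (log2 change -1.21 ± 0.16, edgeR adjusted P = 0.00447). *Hells*, a chromatin remodeller needed for DNA methylation, fell by 0.73 and *Scml2*, a germline Polycomb protein, by 0.68 on the log2 scale. *Dnmt1*, the maintenance methyltransferase that dividing cells of every type use, was at 430 to 456 CPM in Het and 290 to 350 in Null samples. *Trim28*, a widely expressed corepressor, had a log2 change of -0.10 ± 0.06 and was not called, although the Null samples, at 808 to 894 CPM, all lay below the Het samples, at 912 to 915.

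Of 17 tested X-linked germ cell genes, 11 were lower and 1 higher, with 7 lower without Het 4 and 7 without Het 5. The higher gene was *Nr0b1*, with a log2 change of 0.23, which is also on the list of Sertoli markers. *Tex16* was at 16.3 to 19.3 CPM in Het and 8.86 to 10.2 in Null samples, *Tex13b* at 52.4 to 56.5 and 28.8 to 34.7, and *Taf7l*, a germ cell relative of a general transcription factor subunit, at 81.2 to 111 and 43.1 to 58.9. *Nxf2*, an mRNA export factor, was at 118 to 158 CPM in Het and 63.8 to 95.8 in Null samples. None of these 4 genes overlapped between genotypes, which was also so for 2188 of the 2221 genes called lower. A further 8 X-linked genes of the list were too low to test.

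Genes of DNA replication and mitosis were lower, by less than the germ cell genes. Of 43 tested replication genes, 22 were lower and 0 higher, with a median log2 change of -0.27. *Orc1*, a subunit of the origin recognition complex, was at 27, 30 and 25.7 CPM in Het and 15.8, 15.3 and 15.1 in Null samples (log2 change -0.84 ± 0.09, edgeR adjusted P = 0.0024). *Cdc45*, part of the replicative helicase, fell by 0.71, *Lig1*, which joins Okazaki fragments, by 0.53, and *Rpa2*, a subunit of the single-strand binding complex, by 0.48. The replication clamp gene *Pcna*, at 66.1 to 70 CPM in Het and 55.1 to 71.6 in Null samples, overlapped between genotypes and was not called. Without Null 5, the highest Null sample for *Pcna*, its log2 change was -0.30 and it was called. With the samples numbered 6 left out, 14 replication genes were lower.

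Of 30 mitosis and kinetochore genes, 21 were lower and 0 higher (median -0.31), 13 of them without Het 5. *Cenpf*, a kinetochore protein, was at 284, 290 and 271 CPM in Het and 199, 169 and 173 in Null samples, and fell by 0.65 ± 0.07. *Ccnb1* (cyclin B1) and *Ttk*, the spindle checkpoint kinase MPS1, fell by 0.57 and 0.55. *Kif20a*, a mitotic kinesin, fell by 0.55, but 33.2% of its exon sequence overlaps *Cdc23*. The proliferation marker *Mki67* was at 365 to 404 CPM in Het and 302 to 384 in Null samples and was not called (log2 change -0.16 ± 0.09). With the block it was (edgeR adjusted P = 0.0572).

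Among cyclins, CDK inhibitors and other G1 genes no common direction was seen, and the median was 0.00. Of 23 genes, 4 (17.4%) were lower and 2 (8.7%) higher, against 13.3% and 7.47% of all genes. *Ccnd1* (cyclin D1) was at 50.3, 63.2 and 49.7 CPM in Het and 25.5, 28.5 and 16.5 in Null samples (log2 change -1.21 ± 0.19, edgeR adjusted P = 0.00779), with 23.4% of its exon sequence shared with an overlapping gene. *Cdkn2a*, which encodes the tumour suppressors p16INK4a and ARF, was at 13.6 to 15.6 and 5.76 to 8.46 CPM. *Cdkn1b* (p27), a brake on the cell cycle, was higher at 51.7 to 54.2 CPM in Null and 39.8 to 43.4 in Het samples, but its log2 change of 0.34 became -0.02 under Sertoli scaling. The shares of this list called lower and higher were thus near those of all genes. Without Het 4 or without Het 5, 2 members were lower, and 1 was higher without Het 4, Het 5, Het 6 or Null 4.

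Fanconi anaemia and homologous recombination genes, which repair cross-links and broken forks in dividing cells, had 15 of 27 members lower and 0 higher (median -0.29). *Fancd2*, the central Fanconi protein, was at 77.3, 75.9 and 72.7 CPM in Het and 47.8, 41.4 and 41.3 in Null samples (log2 change -0.79 ± 0.07, edgeR adjusted P = 0.00187). *Brca1* and its partner *Bard1* each fell by 0.44. None of the 3 overlapped between genotypes, as with 2188 of the 2221 genes called lower.

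The cholesterol synthesis pathway also held falls and no rise, with 9 of 24 genes lower and a median of -0.22. *Mvd*, mevalonate diphosphate decarboxylase, was at 44.1, 40.6 and 40.8 CPM in Het and 21, 22.8 and 23.6 in Null samples (log2 change -0.90 ± 0.08, edgeR adjusted P = 0.0016). *Lss*, which closes the sterol ring, fell by 0.48. *Srebf2*, the transcription factor that drives the pathway, was at 455 to 482 CPM in Het and 328 to 383 in Null samples. With the samples numbered 6 left out, 6 genes of the pathway were lower, while pooled somatic scaling gave 13 and Sertoli scaling 21.

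**Figure D2:**
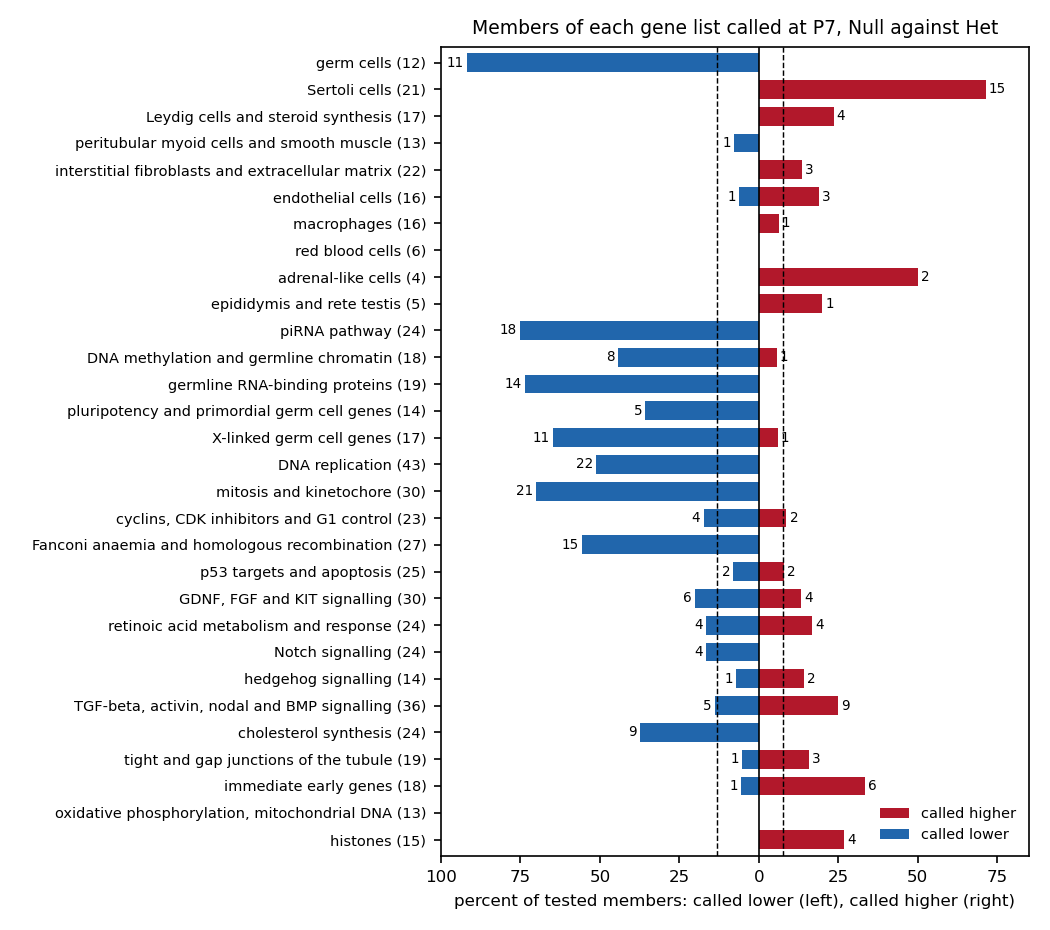
Percentage of the tested members of each gene list called higher or lower in Null testes at P7, with the number of genes called printed on the bars and dashed lines at the 7.47% and 13.3% of all genes. Bars to the left are long for germ cell and cell division lists, and the longest bar to the right is that of Sertoli cell markers, with 15 of 21 higher.

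Of the 30 tested GDNF, FGF and KIT genes, which include signals from Sertoli to germ cells, 6 (20%) were lower and 4 (13.3%) higher. Over all genes, 13.3% were lower and 7.47% higher. *Gdnf*, the Sertoli cell ligand that maintains spermatogonial stem cells, was at 28.9, 29.3 and 30.1 CPM in Het and 46.4, 51 and 41.3 in Null samples (log2 change 0.65 ± 0.09, edgeR adjusted P = 0.00502). Its change was 0.30 under Sertoli scaling and 0.51 under pooled somatic scaling. *Gdnf* is a named rise, chosen with a change of at least 0.5, and is among the markers of both scalings. Its positive sign there follows largely from that choice. Its receptor on germ cells, *Gfra1*, was at 58.2, 55.2 and 49.8 CPM in Het and 32.1, 30 and 21.5 in Null samples (log2 change -0.96 ± 0.14, edgeR adjusted P = 0.00659). Ligand and receptor thus moved in opposite directions. Neither overlapped between genotypes, as with 1210 of 1247 genes called higher and 2188 of 2221 called lower.

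The KIT pair was split in the same way on the usual scale, though not under Sertoli scaling. The receptor gene *Kit*, a sign of differentiating spermatogonia, was at 137, 143 and 140 CPM in Het and 58.4, 34.6 and 47.3 in Null samples (log2 change -1.58 ± 0.16, edgeR adjusted P = 0.0023). *Kitl*, its ligand, was at 335 to 344 CPM in Het and 396 to 447 in Null samples (log2 change 0.30 ± 0.06, edgeR adjusted P = 0.0166), but the ligand's change was -0.05 under Sertoli scaling. *Fgfr3*, a fibroblast growth factor receptor, was at 11.3, 11 and 12.9 CPM in Het and 3.13, 3.21 and 4.34 in Null samples. *Gfra3*, a related GDNF-family receptor, was low, at 3.91 to 4.39 CPM in Het and 0.815 to 1.74 in Null samples. Higher calls on the list numbered 8 with the block and 2 without Het 6, whereas the 6 lower calls were 6 with the block and 6 under pooled somatic scaling.

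For retinoic acid, 4 of 24 genes (16.7%) were lower and 4 (16.7%) higher, against 13.3% and 7.47% of all genes, and the median was 0.01. *Crabp1*, a cytosolic retinoic acid carrier, had one of the largest falls of any list member, from 38.7, 44.4 and 34.5 CPM in Het to 9.04, 4.02 and 5.09 in Null samples (log2 change -2.68 ± 0.25, edgeR adjusted P = 0.00188). Of the receptors, *Rarg* was lower, at 32.7 to 38.5 CPM in Het and 15.9 to 23.5 in Null samples, and *Rara* was higher, at 164 to 182 and 210 to 243, although the change of *Rara*, 0.35, was -0.01 under Sertoli scaling. *Rbp4*, a retinol carrier, fell by 0.98.

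Of the enzymes that oxidise retinol and retinal, 2 are described. *Aldh1a1*, a retinaldehyde dehydrogenase, was at 866 to 1035 CPM in Het and 1152 to 1312 in Null samples (log2 change 0.36, or 0.01 under Sertoli scaling, and not called without Het 4, where it was 0.35). *Adh4*, an alcohol dehydrogenase that takes retinol, was at 1.89 to 2.57 and 3.51 to 5.28 CPM (log2 change 0.92, not called without Het 5, where it was 0.81). *Aldh1a3*, counted within the list, was also called higher (log2 change 0.52, edgeR adjusted P = 0.0369). The remaining enzymes of the list, such as *Aldh1a2* with a log2 change of -0.19, were not called. Leaving out Het 4 or Het 5 left 2 retinoic acid genes higher.

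Of 24 Notch genes, 4 (16.7%) were lower and 0 higher, a share near the 13.3% of all genes called lower. Among the 4 were *Jag2*, above, and *Dll3*, an atypical ligand that was barely detected (1.54 to 2 CPM in Het, 0.163 to 0.625 in Null samples). With the block, 6 were lower and 3 higher. Without Het 4, Het 5 or Null 5, 2 were lower.

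The TGF-beta superfamily was mixed, with 9 of 36 genes (25%) higher and 5 (13.9%) lower, against 7.47% and 13.3% of all genes. Its median of 0.16 became -0.19 under Sertoli scaling. The lower genes were led by *Bmp8b*, a germ cell bone morphogenetic protein, at 1.91 to 2.52 CPM in Het and 0.625 to 0.745 in Null samples. *Acvr2b*, an activin receptor, fell by 0.55 and *Smad1*, a transducer of BMP signals, by 0.29. The higher genes included the ligand *Tgfb2* (19.8 to 21.8 CPM in Het, 27.6 to 31.8 in Null) and both inhibitory SMADs, *Smad6* (29 to 36.5 and 41.3 to 46.7) and *Smad7* (85.6 to 91.5 and 101 to 137). *Acvrl1*, the receptor ALK1, was at 108, 115 and 116 CPM in Het and 167, 176 and 147 in Null samples (log2 change 0.54 ± 0.07, edgeR adjusted P = 0.00567). *Acvrl1* is a named rise that is not on this list, and the share of the list called lower was near that of all genes. With the block 16 list genes were higher, without Het 5 or Null 5 the number was 5, and under either marker scaling 0. The 5 lower genes became 3 without Het 4, Het 5, Null 4 or Null 6.

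Hedgehog genes were few, with 2 of 14 higher and 1 lower. *Dhh*, the Sertoli cell signal to Leydig and myoid cells, was at 223, 230 and 199 CPM in Het and 288, 315 and 270 in Null samples. *Gli3*, a transcriptional effector of the pathway, fell by 0.35. *Boc*, a co-receptor, was higher by 0.31, or -0.04 under Sertoli scaling. Without Null 6, 2 were lower.

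Sertoli cell markers were higher in Null testes. Of 21 tested markers, 15 were higher and 0 lower, with a summed level of 7153 to 7401 CPM in Het and 9380 to 9936 in Null samples and no overlap. The median log2 change was 0.37 and, by the way that scaling is built, 0.02 under Sertoli scaling and 0.22 under pooled somatic scaling. All 21 changes were positive. Without Het 4, 9 markers were higher, and under either marker scaling 2 were.

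*Clu* (clusterin), a secreted chaperone abundant in Sertoli cells, was at 2593, 2446 and 2516 CPM in Het and 3294, 3229 and 3405 in Null samples (log2 change 0.39 ± 0.06, edgeR adjusted P = 0.00659). *Inhbb*, a subunit of inhibin and activin B, was at 445 to 493 and 600 to 681 CPM. *Sox9*, the transcription factor that specifies Sertoli cells, was at 295, 248 and 305 CPM in Het and 336, 319 and 317 in Null samples. Its change of 0.20 ± 0.08 was not called (edgeR adjusted P = 0.147), was called with the block (0.0567), and was -0.15 under Sertoli scaling. Over the 21 tested markers the log2 changes ran from 0.05 to 0.77. Per kb of exon, *Clu* was the higher of the pair at 732 CPM in Het and 963 in Null samples, against 68.4 and 78.3 for *Sox9*.

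The 15 named rises were chosen from 54 candidates in the same way as the falls, with a log2 change of at least 0.5, and by construction do not overlap between genotypes. All 15 stayed positive under both marker scalings, which follows largely from how they were chosen. The scalings move nearly all genes down together, taking the all-gene median from 0.01 to -0.34 (Sertoli) and -0.14 (pooled somatic). Of the 15, 14 kept their call under both, the exception being *Elovl2*. Their log2 changes ran from 0.50 to 0.99, against -1.21 to -2.73 for the named falls.

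The rise with the smallest p was *Ctsl*, cathepsin L, a lysosomal and secreted protease that Sertoli cells make. It was at 904, 812 and 854 CPM in Het and 1249, 1340 and 1187 in Null samples (1.47-fold higher, log2 change 0.55 ± 0.07, edgeR adjusted P = 0.00388). Under Sertoli scaling its change was 0.20 and under pooled somatic scaling 0.41. Pseudogene copies share 28.1% of its 50-base exon windows, so part of its reads may have been lost or moved.

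*Nptx1*, a secreted pentraxin best known at synapses, had the largest change of the named rises, from 6.33, 6.79 and 5.03 CPM in Het to 11.7, 11.1 and 13.3 in Null samples (1.99-fold higher, log2 change 0.99 ± 0.15, edgeR adjusted P = 0.00687). *Krt8*, an epithelial keratin of immature Sertoli cells, was at 4.69, 4.78 and 4.55 CPM in Het and 7.74, 10.7 and 8.38 in Null samples (log2 change 0.93 ± 0.16, edgeR adjusted P = 0.00963). Its pseudogenes share 29.7% of its windows. Both genes were low in either genotype, and both remained over 0.5 on the log2 scale under each marker scaling. *Col9a3*, a chain of collagen IX, was at 14.4 to 17.5 CPM in Het and 25.3 to 26 in Null samples, with 6.07% of its exon sequence in an overlapping gene.

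Fatty acid and membrane genes were among the other rises. *Elovl2*, which elongates polyunsaturated fatty acids, was at 379, 330 and 352 CPM in Het and 522, 538 and 445 in Null samples, but its call was lost under Sertoli (edgeR adjusted P = 0.136) and pooled somatic scaling (edgeR adjusted P = 0.112). *Phyh*, a peroxisomal enzyme that oxidises branched fatty acids, was at 20.5 to 24.5 and 31.3 to 35.6 CPM. *Slc38a5*, an amino acid transporter, was at 85.7 to 107 CPM in Het and 131 to 155 in Null samples, and *Mbp*, named for myelin basic protein, at 12.1 to 13 and 17.1 to 21.5. Apart from *Gdnf*, *Acvrl1* and *Gm2044*, described elsewhere, the rest were *Mcrip2*, *Ccdc28b*, *Klhdc7a* and *Tmem52*, with log2 changes of 0.66, 0.69, 0.66 and 0.79. Of *Ccdc28b* exon sequence, 15% overlaps *Tmem234*.

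**Figure D3:**
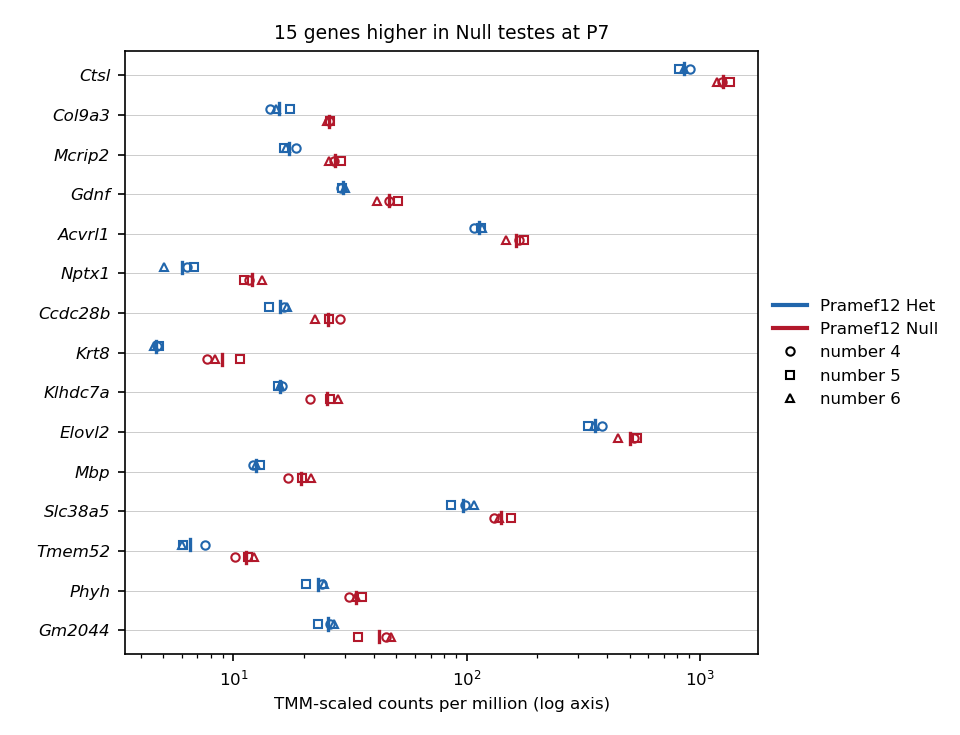
CPM on a log axis of the 15 named rises in the 6 P7 samples, with a point for each sample, coloured by genotype and shaped by sample number, and a short vertical bar at each group mean. In every gene the 3 Null points lie above the 3 Het points, and the gaps are narrower than among the falls, as in *Ctsl*, from 904 CPM in the highest Het sample to 1187 in the lowest Null sample.

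The promoter windows of *Ctsl* (minus strand, chr13:64370471-64370770) and *Krt8* (minus strand, chr15:102004293-102004592), the first rises by p with a single window, are shown for comparison with those of the falls, with the same motifs in capitals.
Ctsl: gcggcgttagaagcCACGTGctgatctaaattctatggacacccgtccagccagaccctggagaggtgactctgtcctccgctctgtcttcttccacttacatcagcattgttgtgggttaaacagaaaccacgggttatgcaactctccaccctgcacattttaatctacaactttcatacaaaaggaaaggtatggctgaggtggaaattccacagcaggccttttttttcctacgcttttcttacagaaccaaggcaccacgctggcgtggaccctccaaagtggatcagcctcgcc
Krt8: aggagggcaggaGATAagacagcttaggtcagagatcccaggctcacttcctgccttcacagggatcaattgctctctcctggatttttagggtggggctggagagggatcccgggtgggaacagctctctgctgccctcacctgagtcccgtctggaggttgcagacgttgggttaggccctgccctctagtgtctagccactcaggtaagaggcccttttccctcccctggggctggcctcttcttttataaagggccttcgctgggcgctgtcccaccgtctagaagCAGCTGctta
The *Ctsl* window holds 1 CACGTG, found in 7.15% of all windows, and the *Krt8* window holds 1 GATA and 1 CAGCTG, found on either strand in 57.9% and 16.3% of all windows.

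*Gm2044*, a named rise without a known protein, was at 26, 23 and 27.1 CPM in Het and 45.2, 34.2 and 47.5 in Null samples (log2 change 0.74 ± 0.13, edgeR adjusted P = 0.011). By construction it had no overlap between genotypes. Its exons hold *Mir202*, the gene of a microRNA with known gonadal expression, and 14.2% of its exon sequence overlaps annotated microRNA genes. The mature sequences from RefSeq (GRCm38.p6, minus strand, chr7:139957732-139957752 and chr7:139957695-139957716) follow with bases 2 to 8, the seed, in capitals.
mmu-miR-202-5p: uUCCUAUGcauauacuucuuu
mmu-miR-202-3p: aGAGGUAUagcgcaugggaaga
The arms carry different seeds. These libraries were made from polyadenylated RNA and did not measure mature microRNAs, so the rise concerns the longer transcript only.

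Other somatic cell types were higher in fewer genes. Of 17 tested Leydig cell and steroid synthesis genes, 4 were higher and 0 lower, with a median of 0.28 that became -0.07 under Sertoli scaling, and 2 were higher without Het 4 but 7 with the block. *Fdxr*, which passes electrons to mitochondrial steroid enzymes, was at 118 to 149 CPM in Het and 181 to 186 in Null samples. *Hsd17b3*, which makes testosterone, was at 61.7 to 76.6 and 84.2 to 129 CPM, with a log2 change of 0.60 that was not called without Het 4 (0.55) or Het 6 (0.54). *Nr5a1* (SF1), shared with Sertoli cells, was higher by 0.28, or -0.08 under Sertoli scaling.

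Interstitial fibroblast and matrix genes had 3 of 22 (13.6%) higher and 0 lower, against 7.47% and 13.3% of all genes. Their median of 0.14 became -0.21 and -0.02 under the Sertoli and pooled somatic scalings. The higher count was 11 with the block, 8 without Null 4 and 1 without Het 5, Null 5 or Null 6. It was 0 without Het 4 or without both samples numbered 6. Endothelial genes had 3 of 16 (18.8%) higher and 1 (6.25%) lower, and 6 higher with the block. Their median of 0.12 became -0.23 under Sertoli and -0.03 under pooled somatic scaling. *Sox18*, an endothelial transcription factor, was at 56 to 68 CPM in Het and 77.8 to 89.4 in Null samples. Macrophage markers had 1 of 16 (6.25%) higher, near the 7.47% of all genes, and 3 with the block. Their median of 0.20 became -0.14 under Sertoli scaling.

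Peritubular myoid and smooth muscle genes were rarely called, with 0 of 13 higher, 1 lower and a median of 0.04, or -0.32 with 10 lower under Sertoli scaling. *Acta2*, smooth muscle actin, overlapped between genotypes at 829 to 868 and 742 to 859 CPM. The lower call was absent without Het 4, Het 5, Null 4 or Null 6.

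Markers of blood, of the epididymis and rete testis, and of adrenal-like cells were low. Of 6 tested red blood cell genes, 0 were called, with sums of 59.6 to 109 CPM in Het and 41.7 to 101 in Null samples. Of 10 epididymis and rete testis genes, 5 were tested and 1 was higher (23.5 to 33.9 CPM in Het, 30.6 to 43.1 in Null in sum). Of the untested genes, *Lcn5*, *Crisp1*, *Adam7* and *Defb2* were at 0 counts in all 6 libraries, and *Lcn8* had 1 count in Het 4 and in Null 5. The 5 tested genes were detected and gave the sums above. Of 4 tested adrenal-type steroid genes 2 were higher, with sums of 10.9 to 17.1 CPM in Het and 10.5 to 31.1 in Null samples, and 0 were higher without Het 4 or Het 5. The part of these cells in the somatic rises was not tested.

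Tight and gap junction genes of the tubule had 3 of 19 (15.8%) higher and 1 (5.26%) lower, against 7.47% and 13.3% of all genes. With the block, 8 were higher. *Gja1* (connexin 43), the main gap junction protein between Sertoli cells, was at 500, 516 and 506 CPM in Het and 713, 874 and 645 in Null samples (log2 change 0.55 ± 0.10, edgeR adjusted P = 0.0134). *Jam2*, a junctional adhesion molecule, was at 145 to 184 and 207 to 246 CPM. The list median was 0.19, 0.03 under pooled somatic scaling and -0.17 under Sertoli scaling.

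Immediate early genes, which respond within minutes to stimulation or to handling of tissue, had 6 of 18 higher and 1 lower, and their median of 0.17 became -0.19 under Sertoli scaling. *Junb* was at 6.44, 5.45 and 5.91 CPM in Het and 18.5, 10.5 and 9.81 in Null samples, with Null 4 well above the other Null samples. *Ier2* was at 31.1 to 36.6 and 41.4 to 46.6 CPM. The count was 3 without Het 4 or Het 6 and 2 without Null 5. Of 25 p53 targets and apoptosis genes, 2 (8%) were higher and 2 (8%) lower, close to or below the 7.47% and 13.3% of all genes, with 4 and 5 under the block. The higher count was 1 without Het 4, Het 5 or Het 6, and the lower count was 0 without Het 4, Het 5 or Null 5, 1 without Null 4 and 4 without Null 6. *Pmaip1* (NOXA), which promotes apoptosis, was at 4.17 to 5.46 CPM in Het and 6.83 to 13.3 in Null samples (log2 change 1.08 ± 0.24, edgeR adjusted P = 0.0238).

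Of 15 tested histone genes 4 were higher and 0 lower, and their median of 0.17 became -0.19 under Sertoli scaling. Most replication-dependent histone mRNAs lack a poly(A) tail and are poorly captured here. *H3f3b*, a gene of the replacement histone H3.3 that is polyadenylated, was at 336 to 348 CPM in Het and 412 to 486 in Null samples. The linker histone gene *Hist1h1c* was higher by 0.40. The 13 protein-coding genes of mitochondrial DNA had 0 called and a median of 0.20, or -0.16 under Sertoli scaling, with sums of 7581 to 10148 CPM in Het and 9661 to 10586 in Null samples. Those ranges overlap, and DESeq2 called 2 of the genes higher.

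Outside the 15 named rises, the call of most somatic genes described depended on the scaling. Of the 106 genes described, 19 lost their call under pooled somatic scaling, and all 19 had been called higher. They were *Elovl2*, *Clu*, *Inhbb*, *Dhh*, *Kitl*, *Tgfb2*, *Smad6*, *Smad7*, *Jam2*, *Sox18*, *Nr5a1*, *Hsd17b3*, *Aldh1a1*, *Rara*, *Cdkn1b*, *Boc*, *Ier2*, *H3f3b* and *Hist1h1c*. Under Sertoli scaling 21 lost it, these genes with *Gja1* and *Fdxr*. *Junb*, *Pmaip1* and *Adh4* kept theirs under both. Exon sequence that overlaps another gene, where unstranded reads cannot be assigned, made up 14.1% of *Pou5f1*, 13.9% of *Fgfr3*, 12.2% of *Bmp8b*, 10.8% of *Orc1*, 9.5% of *Sall4* and 9.28% of *Cdc45*. It was 5.79% to 7.6% of *Lig1*, *Lin28a*, *Junb* and *Gfra1*.

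**Figure D4:**
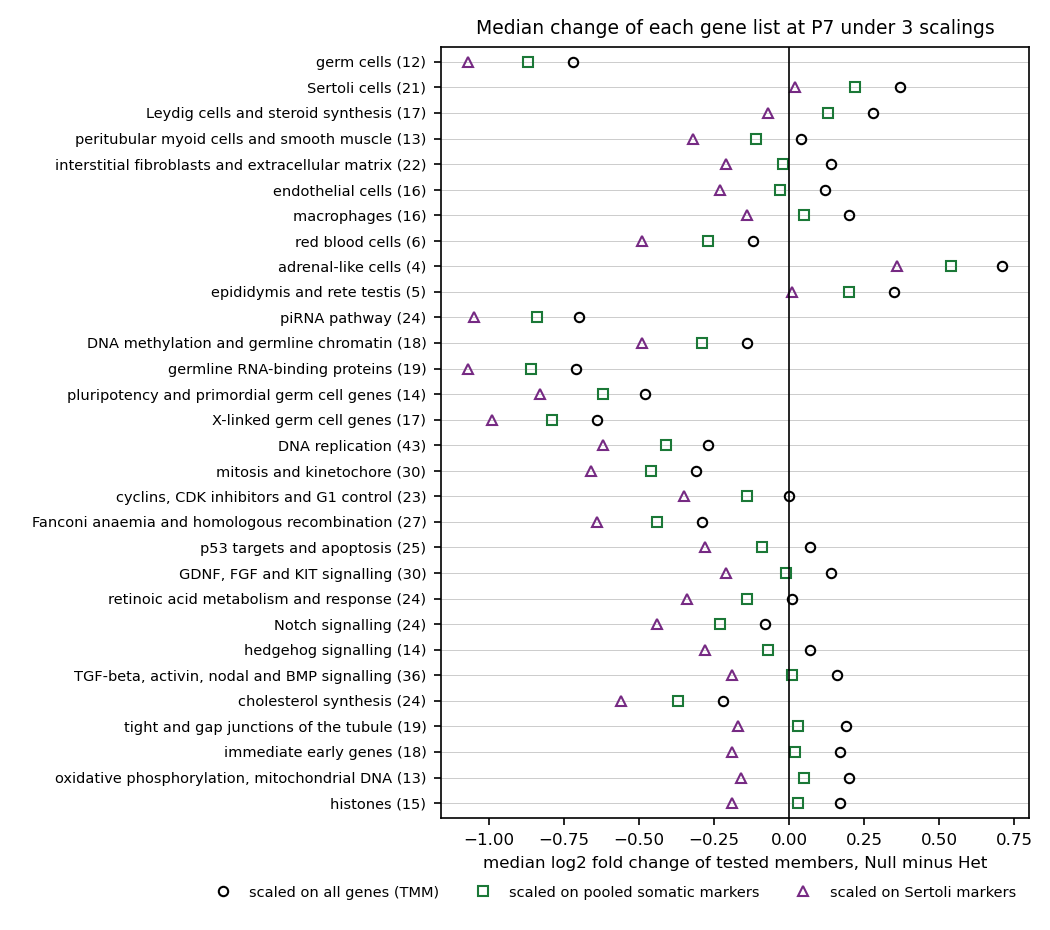
Median log2 change of the tested members of each gene list, Null minus Het at P7, under the usual scaling, scaling on Sertoli markers and scaling on pooled somatic markers. Germ cell and cell division lists are negative under each scaling, whereas the Leydig, fibroblast, endothelial and TGF-beta lists are positive under the usual scaling and negative under Sertoli scaling.

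Genes that the study's single-cell data from other animals of these genotypes assign to exactly 1 cluster gave a further description. Of 69 tested spermatogonia markers, 52 (75.4%) were lower and 1 higher, with a median of -0.37 and sums of 7813 to 8574 CPM in Het and 5910 to 6445 in Null samples. Of 115 Sertoli cluster markers, 66 (57.4%) were higher and 0 lower, with sums of 34452 to 36668 and 43217 to 44585 CPM. Their median of 0.28 was -0.08 under Sertoli scaling. The Leydig cluster had 7 of 35 (20%) higher, and the macrophage cluster 20 of 178 (11.2%) higher and 6 (3.37%) lower. The first and second myoid clusters had 3 of 34 (8.82%) and 4 of 55 (7.27%) higher, and 1 and 2 lower. The higher shares of the myoid clusters were near the 7.47% of all genes. Most called genes, 91.1% of those higher and 97.2% of those lower, belonged to no cluster list.

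The effect of genotype at P7 was then compared with that at P2 in 1 fit of all 12 samples, as P7 effect minus P2 effect. At P2 alone, 6 genes (0.0363%) were lower and 1 (0.00605%) was higher. Of 17494 genes tested for a difference between ages, 85 (0.486%) were more negative and 5 (0.0286%) more positive at P7. These counts depend on single libraries, since 0 remained in either direction without Het 4 or without Het 5 of P7.

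Several of the genes described above were among them. *M1ap* had a log2 change of -0.01 ± 0.17 at P2 and -1.33 ± 0.10 at P7 (edgeR adjusted P of the difference = 0.036). *Lmo1* went from -0.50 ± 0.25 to -2.73 ± 0.20 (edgeR adjusted P = 0.036) and *Kit* from -0.30 ± 0.08 to -1.58 ± 0.16 (edgeR adjusted P = 0.037). For all 3 the test of the difference passed. It did not for *Lin28a*, which was at -1.35 at P2 and -1.47 at P7 (edgeR adjusted P = 0.94). Among the rises, *Krt8* went from -0.05 ± 0.12 to 0.93 ± 0.16 and *Col9a3* from -0.02 ± 0.12 to 0.71 ± 0.09. *Gdnf*, at 0.11 at P2 and 0.65 at P7, and *Ctsl*, at 0.10 and 0.55, did not pass the test of the difference.

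**Figure D5:**
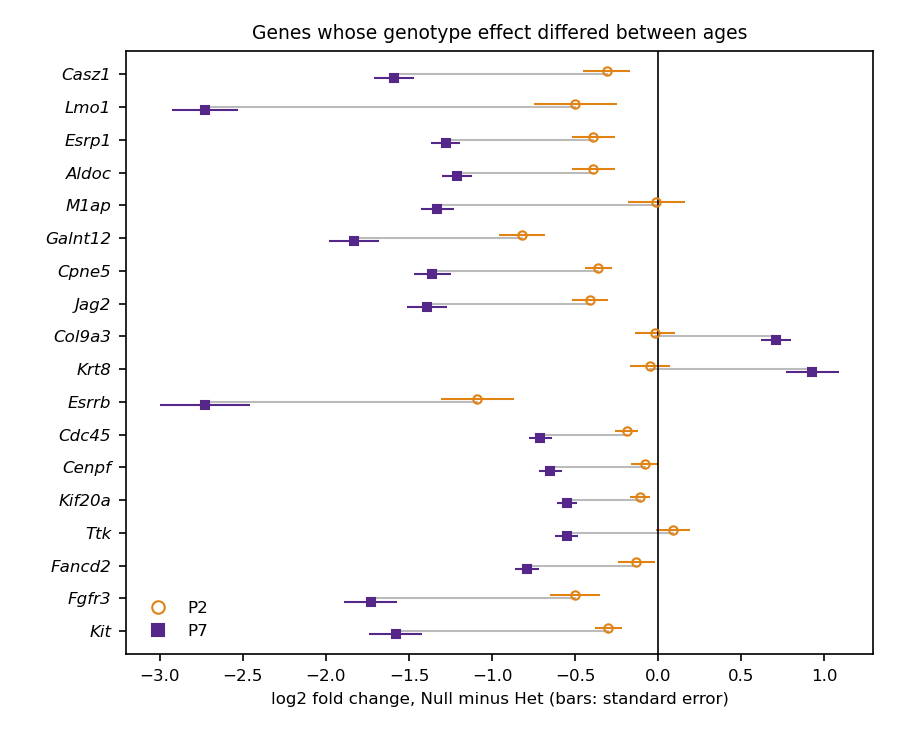
Log2 change, Null minus Het, at P2 and at P7 for the 18 described genes whose genotype effect differed between ages, with bars of 1 standard error. The P7 point lies further from 0 than the P2 point in each gene, to the left in 16 genes and to the right in *Col9a3* and *Krt8*.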

How the data were processed

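The authors purified mRNA of whole testes, made Nextera cDNA libraries, trimmed reads with cutadapt 1.16, aligned them to mm10 with HISAT2 2.1.0, dropped reads with several matches and deposited unstranded featureCounts 1.6.1 counts per gene (GENCODE release 12). The 6 P7 libraries held 16118897 to 20894282 counts, which limits precision for genes under a few CPM.

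From these counts, genes passing filterByExpr (at least 10 counts) were tested by genotype with edgeR 4.0.16 in R 4.3.3 (quasi-likelihood, TMM, two-sided, Benjamini-Hochberg adjusted P below 0.1). The standard error is the log2 change divided by the square root of F. DESeq2 1.42.0 was an alternative, as were other filters and size factors, a replicate block, each sample left out, all 12 samples in 1 fit, and the marker scalings. Leaving out both samples numbered 6 was added after the data were seen. Scripts were tested on simulated data.

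Deviations of same-numbered Null and Het samples from their group means correlated at 0.17, 0.204 and 0.382 for numbers 4, 5 and 6 (log2 CPM, pseudocount 0.5). Differently numbered samples correlated at -0.334 to 0.191, the highest being Het 5 with Null 4. The check thus sets the samples numbered 6 apart but does not show that numbers 4 and 5 pair the samples. The labels do not say what the numbers mark. The members and lists were chosen with earlier results of these data known. Named genes are *Pramef12*, then the 15 falls (log2 change at most -1) and 15 rises (at least 0.5) with the smallest p among genes not discussed by the study, with a mean of at least 50 counts, no overlap, and a call in every edgeR, block, DESeq2 and leave-one-out fit. For each of 30 lists the rule adds up to 4 called members in each direction by p and up to 3 others by level. Of the genes this gave, 106 are described and the rest are counted within their lists. Coordinates are of mm10, and promoter and microRNA sequences are from RefSeq (GRCm38.p6). The study's cluster lists were used for gene names only. Some results are not reported here.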

Additional observations from a re-analysis of the deposited data

Results flagged for a closer look

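The effect of genotype differed between ages for 18 of the genes described, by the interaction term of edgeR over all 12 samples at an adjusted P below 0.1. Values are the P7 log2 change minus the P2 log2 change. Among the named falls it was -2.23 for *Lmo1*, -1.31 for *M1ap*, -1.28 for *Casz1*, -1.02 for *Galnt12*, -1.01 for *Cpne5*, -0.98 for *Jag2*, -0.89 for *Esrp1* and -0.83 for *Aldoc*. Among the named rises it was 0.98 for *Krt8* and 0.73 for *Col9a3*. For germ cell receptors and *Esrrb* it was -1.27 (*Kit*), -1.23 (*Fgfr3*) and -1.63 (*Esrrb*), and for cell division and repair genes -0.66 (*Fancd2*), -0.64 (*Ttk*), -0.56 (*Cenpf*), -0.52 (*Cdc45*) and -0.44 (*Kif20a*).

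Of the 12 fits that leave out 1 sample, *Lmo1* and *Cpne5* passed in 10, *Casz1*, *M1ap* and *Kit* in 9, and *Jag2* and *Fgfr3* in 6. *Krt8* and *Esrrb* passed in 1. With the replicate block and with DESeq2 all 18 passed. The control groups of the 2 ages are separate samples, and age and the sample numbers go together, so a difference between sets of libraries and one between ages cannot be told apart.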

How the results depend on the processing

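With the replicate block, 2142 genes were higher. At an adjusted P below 0.05, 639 were. Scaled on Sertoli markers 72 were higher and 9985 lower, and scaled on pooled somatic markers 88 were higher and 2648 lower, so the balance between rises and falls rests on the scaling. Leaving out 1 sample gave 471 to 1073 higher and 1216 to 2107 lower, lowest without Het 5 and Het 4. Genes more negative at P7 than at P2 numbered 342 with the block and 302 with DESeq2, and 0 to 182 with 1 sample left out (0 without P7 Het 4 or Het 5). Genes more positive numbered 121, 116 and 0 to 20. Under Sertoli scaling the log2 change turned negative for *Cdkn1b* (-0.02), *Kitl* (-0.05), *Rara* (-0.01), *Sox9* (-0.15), *Nr5a1* (-0.08) and *Boc* (-0.04).

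Size factors by RLE gave 1395 higher and 2143 lower, DESeq2 1270 and 1853, no filter 1215 and 2094, and both samples numbered 6 left out 927 and 1658. Under each of these, all 106 genes described kept their direction and their side of the threshold, and with all 12 samples in 1 fit they did too. The block changed the call of 2, *Mki67* and *Sox9*, and of no other gene described. Counts within lists moved by over 1.5 times for 11 of 39 under the block, 34 under Sertoli scaling, 19 under pooled somatic scaling and 12 with both samples numbered 6 left out, and for 7 (Null 4) to 21 (Het 4) with 1 sample left out, with 19 without Het 5. At this depth *Dll3*, *Esrrb* and *Bmp8b* rest on the fewest counts.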
